A study of Homo sapiens with 5 samples.

Results

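The transcripts described here are 6 neighbouring isoform rows of a ribosome profiling table, assigned to KIF1A and chosen by their higher footprint count in the QTRT1 knockout library. They are 6 of the 93916 rows that carry a length and of 182398 rows in all. Ribosome-protected fragments of HEK293T, a line derived from human embryonic kidney, were sequenced in 5 libraries: 1 of QTRT1 knockout cells, 2 of QTGAL knockout cells and 2 of QTMAN knockout cells. All share the HEK293T background, and every comparison is between knockouts, as data from parental cells are not analysed here. The labels state neither whether a knockout is 1 clone nor whether the libraries of a genotype come from separate cultures, so a p-value here refers to library-to-library variation that could be purely technical. The QTRT1 knockout stands on 1 library, and its level therefore has a counting interval and no replicate spread.

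KIF1A is a motor protein of the kinesin-3 family. It walks along microtubules towards their plus ends and is known for carrying synaptic vesicle precursors and dense-core vesicles down the axons of neurons, and KIF1A variants cause a group of neurological disorders. Queuosine is a modified nucleoside in the anticodon of the tRNAs that read tyrosine, histidine, asparagine and aspartate codons. The catalytic subunit of the enzyme that places its base is QTRT1. QTGAL attaches a galactose to queuosine in the tyrosine tRNA and QTMAN a mannose in the aspartate tRNA. A ribosome footprint count rises with both the amount of an mRNA and the number of ribosomes on it, and as RNA levels were not analysed here those cannot be told apart.

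The tables do not pair identifiers with gene names, and 0 rows of the RefSeq gene table name a member, so the assignment to KIF1A rests on coding length. The rows uc031rsb.2 and uc010fzk.3 have 1691 and 1792 codons, which without a stop codon are 1690 and 1791 residues, the lengths of KIF1A proteins. Alone these lengths are not unique, as 7 rows have 1691 codons and 3 have 1792, but there is 1 place in the table where rows of both lengths lie within 20 rows of each other. The members fill rows 28976 to 28983, together with 1 row that has no length and 1 short row, uc061ujx.1, that the choice of members left out. The other members are uc061ujs.1 with 1471 codons, uc061ujr.1 with 357, uc061ujw.1 with 227 and uc061uju.1 with 183. The targeted genes could not be checked by name in these tables for the same reason.

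In the RefSeq annotation of GRCh38.p14 the KIF1A gene spans chr2:240713767-240821403 on the minus strand, with 24 curated coding transcripts. RefSeq gives 3 start-site windows for it, each from 250 bases before a start to 50 bases after it. The footprints do not tell which start the counted mRNAs used. The innermost window, chr2:240820170-240820469 on the minus strand, is printed because it holds the cAMP response element TGACGTCA, a site that the CREB family of activators binds in many neuronal genes, and it was picked after its letters were read.

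KIF1A innermost start window: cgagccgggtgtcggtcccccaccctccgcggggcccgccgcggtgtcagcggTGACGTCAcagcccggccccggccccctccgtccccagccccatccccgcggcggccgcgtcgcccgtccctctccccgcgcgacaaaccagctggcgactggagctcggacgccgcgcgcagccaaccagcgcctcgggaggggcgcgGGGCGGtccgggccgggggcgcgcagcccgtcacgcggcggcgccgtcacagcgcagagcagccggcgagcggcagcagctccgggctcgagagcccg

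The capitals mark TGACGTCA and the GC box GGGCGG, searched on both strands, and they do not overlap. TGACGTCA is its own reverse complement and occurs in 1.85% of the 35116 RefSeq windows of this length. GGGCGG occurs in 45.0% of them, and TATAAA, which none of the 3 KIF1A windows holds, in 11.5%. The window is 81.0% G and C, against 71.3% and 51.7% in the other KIF1A windows and a median of 58.7% over all windows. A match describes letters only, since no binding was measured here.

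Footprints on the full-length rows were between 2.77 and 4.03 times as frequent in the QTRT1 knockout library as in the other libraries. Library totals were 13918194 counts in QTRT1 knockout and ran from 12002044 to 25291912 over the others. The row uc031rsb.2 of 1691 codons had 1027 counts in the QTRT1 knockout library, 555 and 313 in QTGAL knockout replicates 1 and 2, and 346 and 463 in QTMAN knockout replicates 1 and 2. Scaled to library size, these are 73.1 CPM (counts scaled to a common library size) in QTRT1 knockout, 23.3 and 26.4 CPM in QTGAL knockout, and 18.1 and 19.0 CPM in QTMAN knockout. The exact Poisson 95% interval of the QTRT1 knockout value, 68.7 to 77.7 CPM, lay above those of all 4 other libraries, of which the highest reached 29.5 CPM. Such intervals cover counting error only, and reads without molecular identifiers are not independent molecules. As the row was chosen for standing higher in the QTRT1 knockout library, the separation of the intervals describes the choice and carries no test.

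The row uc010fzk.3 of 1792 codons gave nearly the same values, with 72.5 CPM in QTRT1 knockout, 23.3 and 26.0 CPM in QTGAL knockout, and 18.1 and 18.9 CPM in QTMAN knockout. The row uc061ujs.1 of 1471 codons stood at 59.9 CPM in QTRT1 knockout, 18.9 and 20.1 CPM in QTGAL knockout, and 15.4 and 15.4 CPM in QTMAN knockout. In all 3 long rows the QTRT1 knockout library was highest, and both QTGAL knockout libraries lay above both QTMAN knockout libraries.

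The shorter rows, which hold too few codons for the whole motor protein, had the same order at the top. The row uc061ujr.1 of 357 codons had 17.9 CPM in QTRT1 knockout, 5.54 and 5.90 CPM in QTGAL knockout, and 4.98 and 4.71 CPM in QTMAN knockout. The row uc061uju.1 of 183 codons had 9.33 CPM in QTRT1 knockout, 2.47 and 2.36 CPM in QTGAL knockout, and 2.04 and 2.38 CPM in QTMAN knockout. The QTGAL and QTMAN knockout values of this row overlapped.

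The lowest row, uc061ujw.1 of 227 codons, had 5.55 CPM in QTRT1 knockout, 1.80 and 1.43 CPM in QTGAL knockout, and 1.47 and 1.52 CPM in QTMAN knockout. Its counts were 78 in QTRT1 knockout, 43 and 17 in QTGAL knockout, and 28 and 37 in QTMAN knockout, so it is the least precise of the 6. Here too the QTGAL and QTMAN knockout values overlapped, while the QTRT1 knockout value lay above them all.

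**Figure D1:**
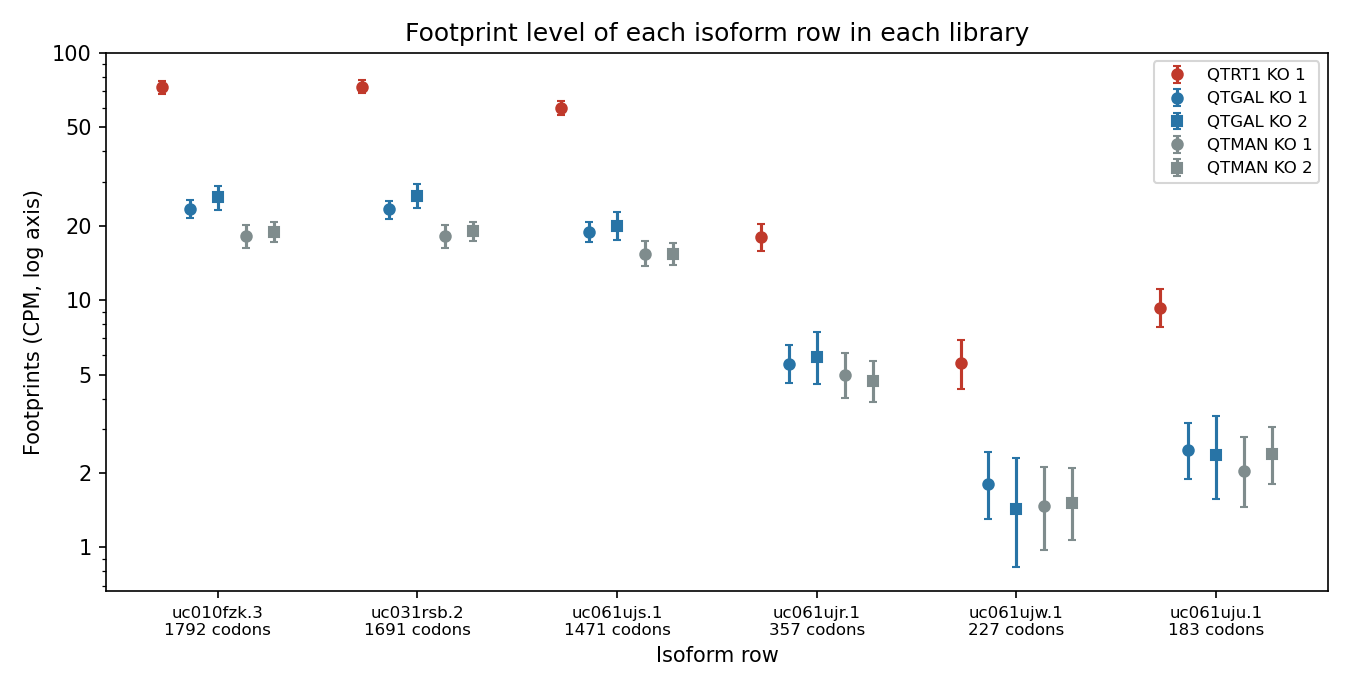
Footprint level in CPM (log axis) of the 6 isoform rows, ordered by coding length, in the QTRT1, QTGAL and QTMAN knockout libraries, with exact Poisson 95% intervals (counting error only). The QTRT1 knockout library is the highest for every row, at 73.1 CPM for uc031rsb.2 where the highest other library has 26.4 CPM.

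Across the 6 rows the QTRT1 knockout value was between 2.77 and 3.77 times the highest of the other 4 libraries, and between 3.81 and 4.56 times the lowest. Those other 4 libraries differed among themselves by 1.21 to 1.45 times. Since the rows were chosen for standing higher in the QTRT1 knockout library, these ratios describe the choice and carry no test. Over all 60966 transcripts tested, the QTRT1 knockout library was the highest of the 5, by any margin, for 24.8%.

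In the edgeR quasi-likelihood fit over those transcripts, uc031rsb.2 differed by a log2 fold change of 1.56 ± 0.15 (SE) between QTRT1 and QTGAL knockout and of 1.98 ± 0.15 between QTRT1 and QTMAN knockout. The same values were 1.94 ± 0.27 and 2.07 ± 0.26 for uc061uju.1, the row with the largest differences. The median over the 6 rows was 1.64 against QTGAL knockout, 1.96 against QTMAN knockout and 1.78 against the mean of both, where the median over all transcripts was 0.00, -0.01 and 0.00. The first and second of these comparisons share the QTRT1 knockout library and so are not independent of each other.

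All 6 rows passed the filter on low counts. With 1 QTRT1 knockout library, the SEs of these fold changes take their spread from the QTGAL and QTMAN knockout libraries, partly pooled over all transcripts. No calls are given for the comparisons with QTRT1 knockout, as they chose the rows.

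The difference between QTGAL and QTMAN knockout is the one that the choice of the rows did not use. The QTGAL knockout libraries averaged 24.8 ± 2.18 CPM for uc031rsb.2, and the QTMAN knockout libraries 18.6 ± 0.584 CPM (SD, n = 2 each). The fitted log2 fold change was 0.41 ± 0.13 (SE), or 1.33-fold. Its 95% interval ran from 0.13 to 0.70, and after adjustment over all transcripts the edgeR p was 0.664. For uc061ujs.1 the QTGAL knockout libraries averaged 19.5 ± 0.801 CPM and the QTMAN knockout libraries 15.4 ± 0.0373 CPM (SD, n = 2 each). Its fitted log2 fold change was 0.34 ± 0.13 (SE), with an adjusted p of 0.749 in edgeR.

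By this test 0 of the 6 rows were called, as were 0% of all transcripts. Over all transcripts the calls numbered 9 and 66 without QTGAL replicates 1 and 2, 71 and 506 without QTMAN replicates 1 and 2, and 282 with no filter on low counts, with 0 of the 6 rows among them in each case. At an unadjusted p under 0.05 the edgeR test passed 3 of the 6 rows, the 3 long ones, and 3953 of all 60966 transcripts, or 6.48%. DESeq2 called 12 of all transcripts and gave no adjusted p for the 6 rows. All 6 log2 fold changes were above 0, from 0.13 for uc061uju.1 to 0.41 for uc031rsb.2, with a median of 0.29, and 50.04% of all transcripts were above 0. Without QTGAL replicate 1, uc061ujw.1 turned to -0.055, and uc061uju.1 ranged from 0.038 without QTMAN replicate 1 to 0.24 without QTMAN replicate 2. Both QTGAL knockout libraries lay above both QTMAN knockout libraries in 4 of the 6 rows, a pattern that 18.3% of all transcripts had. The 2 full-length rows have nearly equal counts and the other rows may share footprints with them, so the 6 directions cannot be counted as independent.

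**Figure D2:**
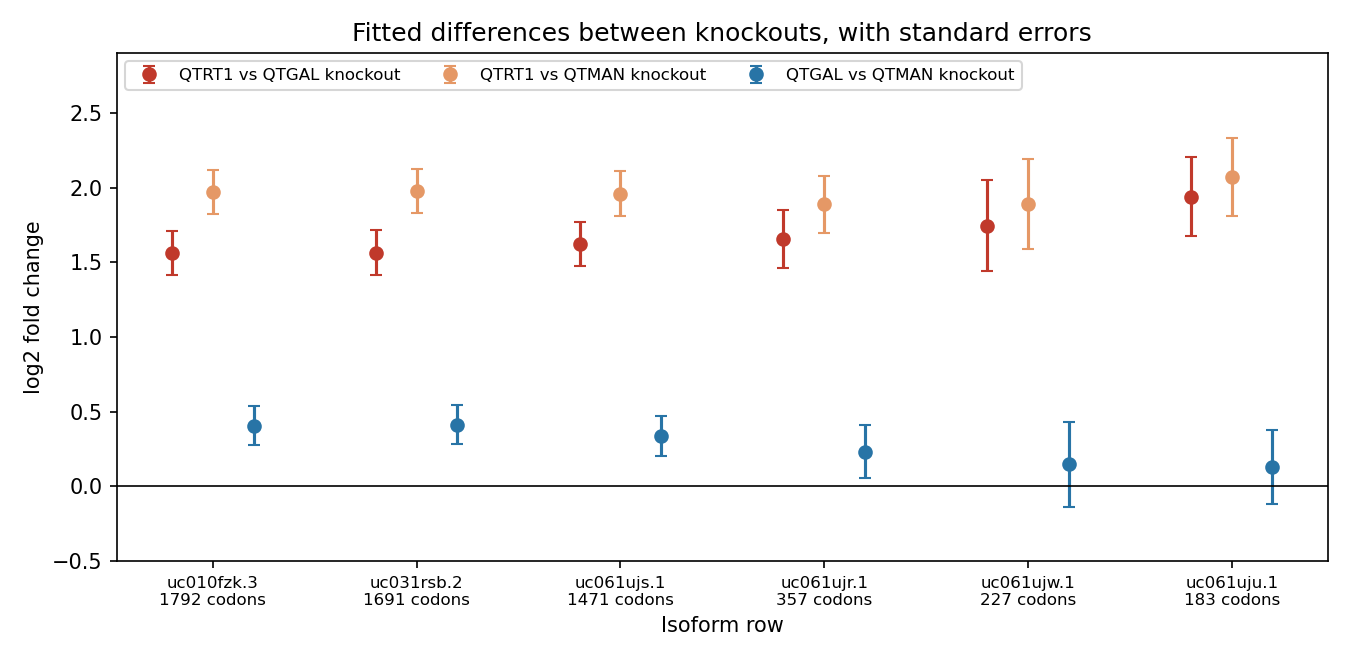
Fitted log2 fold changes with standard errors for the 6 isoform rows in QTRT1 against QTGAL, QTRT1 against QTMAN and QTGAL against QTMAN knockout. The comparisons with QTRT1 knockout lie between 1.56 and 2.07 and those of QTGAL with QTMAN knockout between 0.13 and 0.41, where no row passed the adjusted threshold.

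Per coding length, the long rows had a middling footprint density in the QTGAL and QTMAN knockouts and a high one in the QTRT1 knockout. For uc031rsb.2 the density was 43.2 CPM per 1000 codons in QTRT1 knockout, 13.8 and 15.6 in QTGAL knockout, and 10.7 and 11.2 in QTMAN knockout. Among the tested transcripts of the same library, this density stood above 76.4% in QTRT1 knockout, above 48.5% and 52.5% in QTGAL knockout, and above 41.5% and 43.0% in QTMAN knockout. As the rows were chosen for standing higher in the QTRT1 knockout library, its higher density describes the choice and carries no test. The density of uc061ujw.1 was the lowest of the 6 rows, at 24.5 CPM per 1000 codons in QTRT1 knockout, 7.95 and 6.31 in QTGAL knockout, and 6.47 and 6.68 in QTMAN knockout.

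The 6 rows cannot be taken as independent measurements. The 2 full-length rows differ by 101 codons, yet the longer one had 8 counts fewer than the shorter in QTRT1 knockout, 1 more and 4 fewer in QTGAL knockout replicates 1 and 2, and 0 and 1 fewer in QTMAN knockout replicates 1 and 2. Those differences are at most 1.28% of the counts of the shorter row, as 2 isoforms that share nearly all their footprints would give, so the extra codons brought no net gain in counts. None of the 15 pairs of rows had identical counts in all 5 libraries.

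The step from uc061ujs.1 to uc031rsb.2 adds 220 codons and did add counts. The net gain was 186 counts in QTRT1 knockout, 104 and 75 in QTGAL knockout, and 52 and 88 in QTMAN knockout. Scaled to library size it was 13.2 CPM in QTRT1 knockout, between 2.10 and 4.86 times the gain in the other 4 libraries. The gain stands for footprints that uc061ujs.1 does not hold only if the shorter coding sequence lies within the longer one, which is not stated. Both rows were chosen for standing higher in the QTRT1 knockout library, so the ratio of the gains describes the choice and carries no test.

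The counts were spread over the isoform rows in similar proportions in each library. Relative to uc031rsb.2 in the same library, uc061ujs.1 had 81.9% of the counts in QTRT1 knockout, 81.3% and 76.0% in QTGAL knockout, and 85.0% and 81.0% in QTMAN knockout. For uc061ujr.1 the share was 24.5% in QTRT1 knockout, within the 22.4% to 27.5% of the other 4 libraries, and for uc061ujw.1 it was 7.59%, within their 5.43% to 8.09%. The exception was uc061uju.1, with 12.8% in QTRT1 knockout and between 8.95% and 12.5% in the other 4 libraries. Its counts were 131 in QTRT1 knockout and 58 in QTMAN knockout replicate 2, with Poisson 95% intervals of 110 to 155 and 44.0 to 75.0. The excess over the highest other library is small beside these intervals. The rows may share footprints and were all chosen for standing higher in the QTRT1 knockout library, so their similar proportions carry no test.

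Set against their coding length, uc061ujw.1 was thin and uc061ujr.1 dense. The first has 13.4% of the codons of uc031rsb.2 and had 7.51% of its counts over all libraries, and the second has 21.1% of the codons and had 24.6% of the counts. These proportions held in the QTRT1 knockout library as in the others, as the ranges above show, and carry no test for the same reason.

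**Figure D3:**
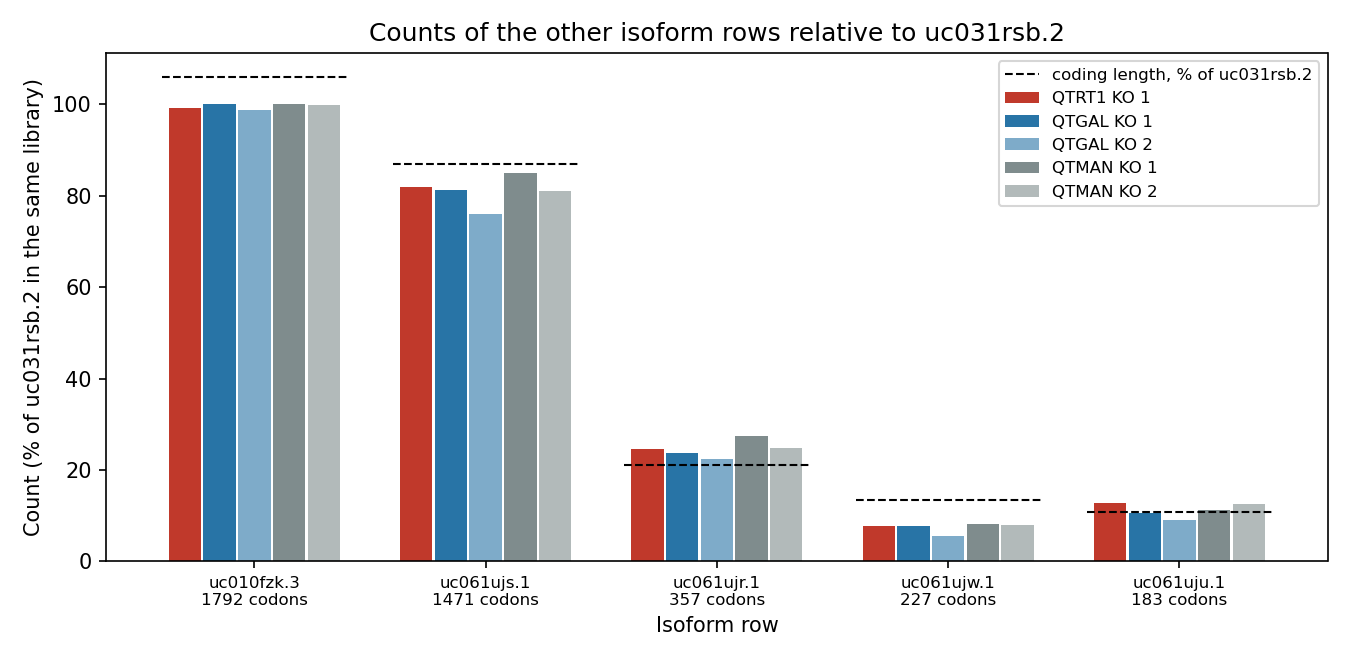
Counts of 5 isoform rows as a percentage of the count of uc031rsb.2 in the same QTRT1, QTGAL or QTMAN knockout library, with dashed lines for the coding length as a percentage of that of uc031rsb.2. The QTRT1 knockout bar lies within the range of the other 4 libraries for 4 of these rows and just above it, at 12.8%, for uc061uju.1. All rows were chosen for standing higher in the QTRT1 knockout library and may share footprints.

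The short row among the members that was not chosen showed the same pattern at a low level. The row uc061ujx.1 of 38 codons had 14 counts in QTRT1 knockout, 8 and 4 in QTGAL knockout, and 6 and 8 in QTMAN knockout. These correspond to 0.997 CPM in QTRT1 knockout, 0.336 and 0.337 CPM in QTGAL knockout, and 0.315 and 0.328 CPM in QTMAN knockout. The QTRT1 knockout value was 2.96 times the highest other one, though its Poisson 95% interval, 0.545 to 1.67 CPM, overlapped those of the other libraries. This row may share footprints with the members, so it adds no independent measurement.

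Rows beside the group did not share its level in the QTRT1 knockout library. The 12 rows with a length just before the members and the 3 just after them had a count of 0 in all 5 libraries. The nearest row before them with at least 100 counts over the 5 libraries was uc002vyw.5, 79 rows away, with 7.55 CPM in QTRT1 knockout, 5.24 and 6.82 CPM in QTGAL knockout, and 6.29 and 5.86 CPM in QTMAN knockout. The nearest row after them was uc061ulc.1, 35 rows away, with 2.42 CPM in QTRT1 knockout, 3.06 and 2.78 CPM in QTGAL knockout, and 2.73 and 2.38 CPM in QTMAN knockout.

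On the log2(CPM + 0.5) scale, the members lay above the mean of the other 4 libraries by 1.56 to 1.81 in the QTRT1 knockout library. The 49 rows with at least 100 counts among the 250 rows before the members had a median of -0.22 by the same measure, and the highest was 0.43. The 103 such rows among the 250 after them had a median of -0.13, and the highest was 0.35. No flanking row of this depth came near the difference of the members, and on both sides the median lay on the lower side in the QTRT1 knockout library. The members were chosen for this difference. In the edgeR fit against both other knockouts, 0.467% of all transcripts tested reached the lowest member. The absence of the difference in the flanking rows therefore carries no test.

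**Figure D4:**
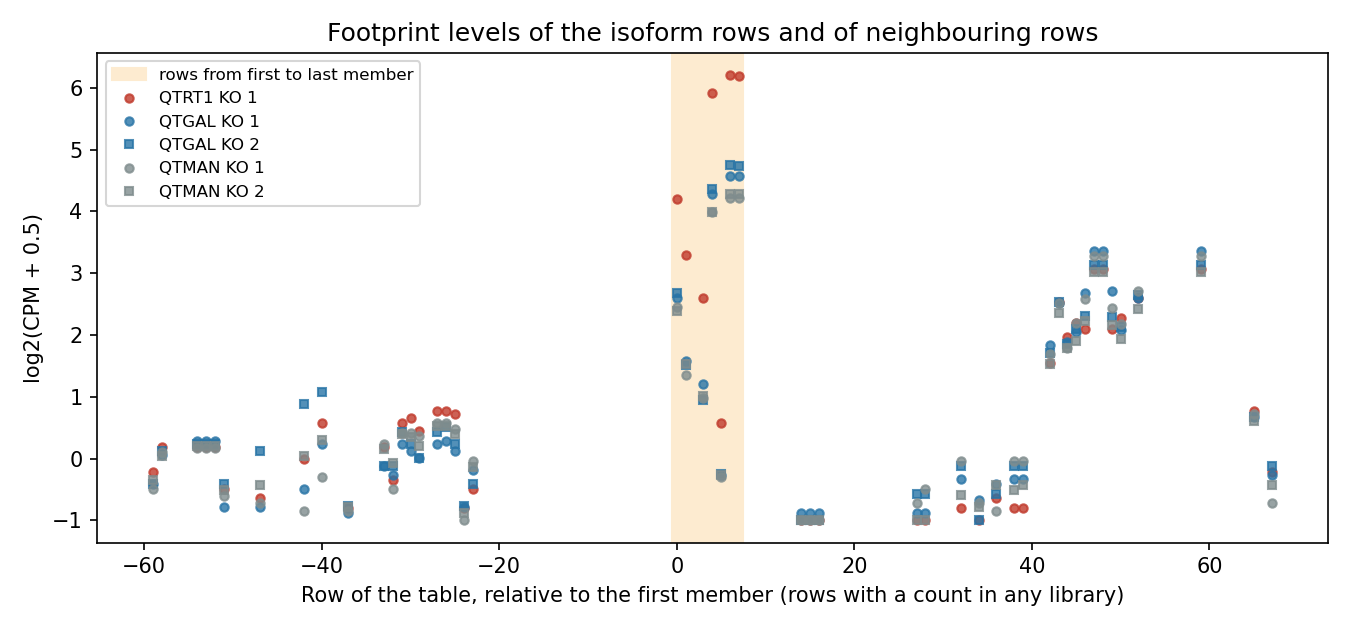
Footprint level as log2(CPM + 0.5) in the QTRT1, QTGAL and QTMAN knockout libraries for rows with a count, by their distance in table rows from the first member, with the span of the members shaded. The QTRT1 knockout points stand apart from the other libraries inside the shaded span, for the members by 1.56 to 1.81 above the mean of the other 4 libraries.

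Other transcripts of at least 5 CPM on average were ranked by how close their profile over the 5 libraries lay to that of the group. Likeness was the Euclidean distance between log2(CPM + 0.5) values centred on their mean over the 5 libraries. Of 26232 transcripts compared, outside 50 rows of the members, the closest was uc001nsl.3 of 445 codons at a distance of 0.337. Its levels were 38.4 CPM in QTRT1 knockout, 15.3 and 16.7 CPM in QTGAL knockout, and 13.3 and 14.05 CPM in QTMAN knockout.

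The next was uc001oct.5 of 419 codons at a distance of 0.345. Its levels were 12.5 CPM in QTRT1 knockout, 3.65 and 5.22 CPM in QTGAL knockout, and 3.62 and 3.52 CPM in QTMAN knockout. Only through the QTRT1 knockout library did its average reach 5 CPM. The members themselves, whose mean made the profile, lay between 0.0962 and 0.300 from it, and 0 of the compared transcripts lay within 0.300. The members were not held to an average of 5 CPM, which uc061uju.1 and uc061ujw.1 do not reach. They may share footprints and were chosen by the QTRT1 knockout library, which dominates the profile. That they lay closest therefore describes the choice and carries no test. The median distance of the compared transcripts was 1.59.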

How the data were processed

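Ribosome profiling of 5 HEK293T libraries was grouped by the genotype in the labels. Per the labels' protocols, extracts were digested with RNase I and fragments of 17 to 34 nt were excised from a gel. The submitters' processing notes name bcl2fastq 2.19, CASAVA, STAR 2.7.0a and hg38. The annotation, the counting program and the strand setting are not given in sources used here. The deposited tables hold raw whole-number counts per transcript, and another deposited column, whose values are the same in all 5 tables, was read as coding length in codons. Totals were 13918194 counts for QTRT1, 23470931 and 12002044 for QTGAL, and 18861713 and 25291912 for QTMAN knockout.

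From the counts, edgeR 4.0.16 (R 4.3.3) was run with filterByExpr by genotype, TMM factors and the quasi-likelihood test over 60966 transcripts, with 1 mean per genotype, 2 residual degrees of freedom and Benjamini-Hochberg adjustment. The script was tested on simulated data. The SE is the log2 fold change divided by the square root of F. CPM used the effective library size. Other scalings, filters, DESeq2 1.42.0, 1 row per set of identical counts, a replicate block and leaving out each QTGAL or QTMAN library were alternatives.

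The members and tests were chosen with earlier results of these data known. Named are the 6 members, the nearest row with at least 100 counts on each side, and the 2 transcripts closest in profile, 1 per 20 neighbouring rows. The row uc061ujx.1 was named after its values were seen. Levels of other kinesins and cargo adaptors, and the residue composition of KIF1A, had been planned and are not analysed here, as no table pairs the identifiers with names and no protein sequence was used.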

Additional observations from a re-analysis of the deposited data

How the results depend on the processing

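The median log2 fold change of the 6 rows in QTRT1 knockout moved by less than a replicate SD under every alternative that gave it. That SD, on log2 CPM, is the median over the rows between replicates of the knockouts compared against. It was 0.058 for QTGAL and QTMAN knockout together, 0.088 for QTGAL and 0.044 for QTMAN knockout. Every alternative used the same 1 QTRT1 knockout library, so none of them could show how far another such library would differ. Against both other knockouts, the lowest and highest values when 1 library was left out were 1.76 and 1.81, where all libraries gave 1.78. Against QTGAL knockout they were 1.59 and 1.66, and against QTMAN knockout 1.95 and 1.98. Requiring 5 CPM or more in 2 libraries kept 4 of the 6 rows, without uc061uju.1 and uc061ujw.1, and gave 1.79 against both. For QTGAL against QTMAN knockout, 0 of the 6 rows were called under any alternative, and DESeq2 gave no adjusted p for them. The direction turned for 1 row under 1 alternative: uc061ujw.1 stood at -0.055 without QTGAL replicate 1, up to 0.27 without QTGAL replicate 2 and at 0.15 with all libraries, where its SE was 0.29. Over all transcripts this comparison had 0 calls, against 12 by DESeq2, 282 with no filter 9 and 66 without QTGAL replicates 1 and 2, and 71 and 506 without QTMAN replicates 1 and 2, and the cause was not tested. The number in the titles of the QTGAL and QTMAN libraries was used as a replicate block: uc031rsb.2 had a log2 fold change of 0.42, with 0 of 6 rows called. Libraries of the same number correlated at 0.174 in their deviations from the group means, which with 2 pairs does not show a pairing. Depth limits uc061ujw.1 most, with 203 counts over 5 libraries, then uc061uju.1 with 315.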
